A study of Mus musculus with 6 samples.

Results

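The 42 genes described here code for proteins that copy DNA, supply its nucleotides or repack the copy into chromatin, and they were taken by name from the 41388 genes counted in mouse neutrophil libraries. RNA was sequenced from C57BL/6 bone marrow neutrophils that had been loaded with 250 nM DiBAC4(3), a negatively charged dye that gathers in cells as their membrane depolarizes, and stimulated with 100 nM ionomycin, a calcium ionophore. Between 2 and 4 minutes after stimulation, 20000 cells of a depolarized and of a polarized population were sorted into lysis buffer, and a SMARTer kit for very small RNA inputs was used to make the cDNA. Each population had 3 libraries, and each depolarized library has a polarized partner in 1 of 3 biological replicate pairs (A, B and C). Both populations carried the dye and the ionophore, there was no unstimulated group, and the sort gate on the dye is what defines the groups. Whether the libraries of a group came from separate animals is not given, so the p-values measure the spread between these samples.

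Replication starts when the loading factors CDC6 and CDT1 place the MCM2-7 helicase on origins and CDC45 with the GINS complex turns it on. Primase and DNA polymerase alpha lay down primers, the RFC clamp loader sets the PCNA ring on them, the replicative polymerases extend, and FEN1 and LIG1 join the lagging strand pieces. Most of these genes are transcribed mainly in cycling cells, under E2F factors, whereas mature neutrophils are post-mitotic cells that descend from dividing precursors in the bone marrow.

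Depolarized libraries held 20381489, 19186785 and 16904969 counts in pairs A, B and C, and polarized libraries held 19323965, 17031149 and 19613539. Mature neutrophil markers such as S100a8 and Ly6g were abundant in every library. The 9 listed took a summed level of 161874 to 181528 CPM (counts scaled to the library total) in depolarized libraries and 182197 to 222206 CPM in polarized ones, without overlap. Of the 9, 6 were lower on average in depolarized cells. Csf3r lay the other way, at 2265, 2403 and 2191 CPM in depolarized libraries, against 1680, 1496 and 1518 CPM in polarized ones. So did Cd101, at 407, 356 and 315 CPM in depolarized libraries, against 244, 188 and 232 CPM in polarized ones. Of all 9971 genes that passed the filter on low counts, 24 were called lower in depolarized cells and 8 higher, at an adjusted p under 0.05 by edgeR's quasi-likelihood test with the replicate pair as a block.

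Most replication genes were scarce in both populations, with 35 of the 42 under a mean of 5 CPM, and those called were lower in depolarized cells. Of the 42 genes, 27 passed the filter and 4 of these were called lower in depolarized cells: Prim1, Asf1b, Rrm2 and Tipin. They are 14.8% of the 27 listed genes tested, against 0.241% of all genes tested, and none of the 27 was called higher, against 0.0802% of all genes. At an unadjusted p under 0.05, 11 of the 27 were lower (40.7%, against 3.32% of all genes tested) and 0 were higher (against 3.26%). The other 7 of these 11 were Mcm3, Mcm5, Rrm1, Tyms, Rfc4, Pclaf and Chaf1b, and none of them passed the adjusted threshold. All 3 pairs were below 0 for 11 genes (12.1% of all genes tested), and depolarized and polarized libraries did not overlap for 9, with depolarized lower (3.14% of all genes tested). With edgeR none of the 27 was called without the replicate block, or with library totals in place of TMM factors (10 at an unadjusted p under 0.05 in each). DESeq2 without the block called 5 lower, and 3 of these were among the 4 called above.

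These counts are limited by how genes came to be tested. Mcm5, Tyms, Prim1 and Tipin reached the filter's level of 0.519 CPM in polarized libraries alone, so these 4 had to lean to one side. Passing the filter that way also fixed that their groups could not overlap, and all 4 are among the 9 genes without overlap. A further 7 reached that level in all 3 polarized but fewer than 3 depolarized libraries, which favours the polarized side without forcing it. Mcm3 and Cdc6 reached the level in 2 libraries of each group. The 14 genes that reached it in all 6 libraries hold 2 of the 11, Rrm2 and Chaf1b. Of the 4 called genes only Rrm2 is among these 14. The share over all genes that reached the level in all 6 libraries was not computed. With no filter beyond 1 count, all 42 genes entered the fit and 8 were called lower (19% of them, against 0.437% of 21979 genes), with 0 higher: Chaf1b, Mcm5, Pclaf and Rrm1 joined the 4. All 8 had also passed the filter, and none of the 15 genes it had removed was called. The 21979 include genes with too few counts to be called, so these shares are not matched on level and do not lift the limit. In bulk samples such as these, fewer cells of a type and less RNA per cell cannot be told apart.

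**Figure D1:**
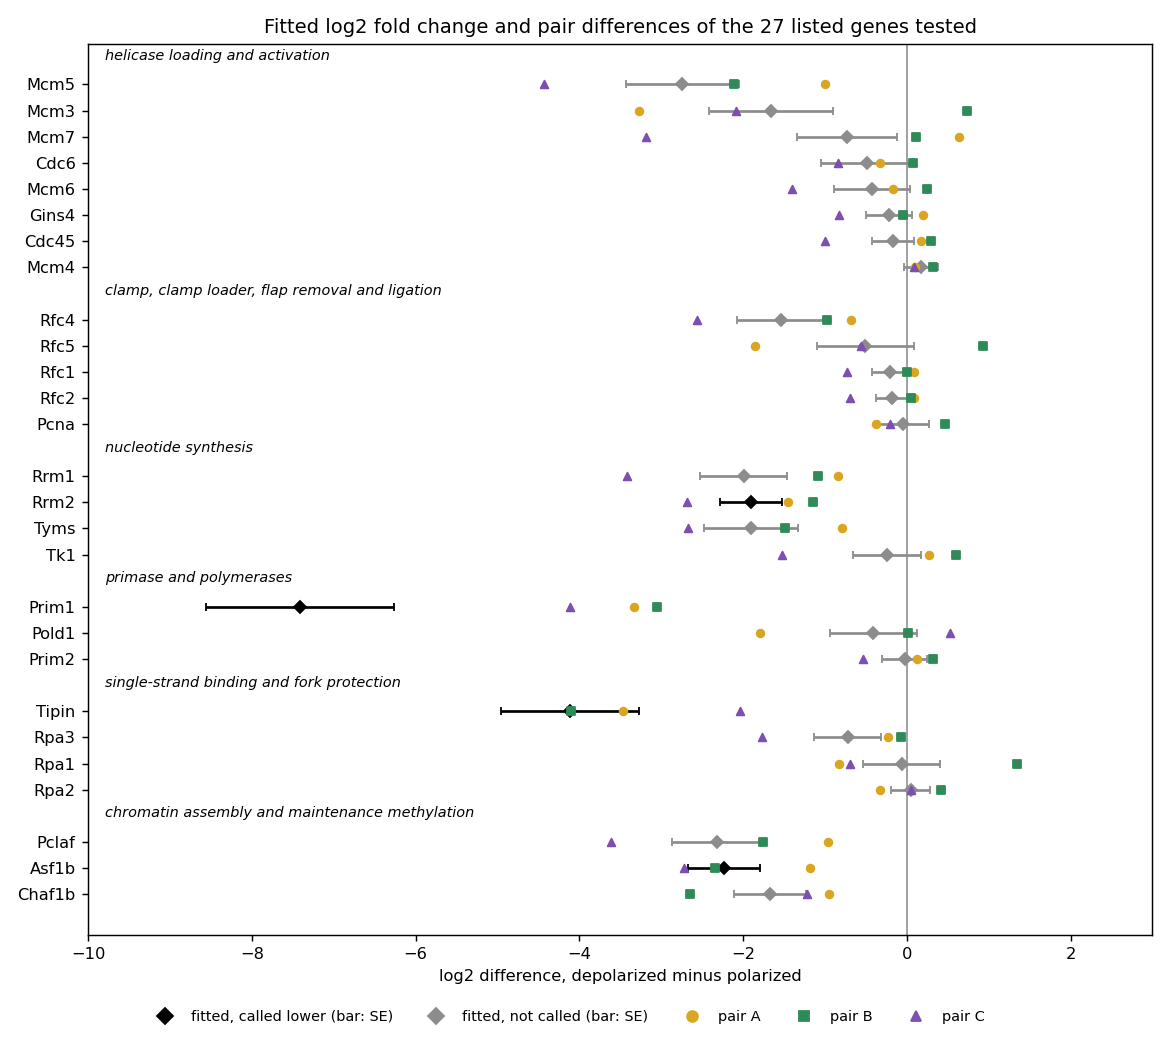
Log2 difference, depolarized minus polarized, for each of the 27 listed genes tested, by role. Diamonds are edgeR fits with bars of 1 approximate SE (black where the adjusted p was under 0.05), and small symbols are the single pair differences with a prior count of 2. Of the diamonds, 25 lie below 0 and 2 above, with Prim1 at -7.42, a value that depends on the prior count, and Mcm4 at 0.17.

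The promoters of the genes with the clearest contrast are shown here, because E2F-type sites and CCAAT boxes are the motifs for which cell cycle promoters are known. Each window runs from 250 bases before to 50 after the RefSeq start on GRCm38.p6, in the direction of the gene, and capitals mark E2F-type matches and CCAAT boxes on either strand. The first 3 belong to called genes with a window, on chr10:128014965-128015264 (plus strand), chr8:83955444-83955743 (plus) and chr12:24708004-24708303 (plus).

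Prim1: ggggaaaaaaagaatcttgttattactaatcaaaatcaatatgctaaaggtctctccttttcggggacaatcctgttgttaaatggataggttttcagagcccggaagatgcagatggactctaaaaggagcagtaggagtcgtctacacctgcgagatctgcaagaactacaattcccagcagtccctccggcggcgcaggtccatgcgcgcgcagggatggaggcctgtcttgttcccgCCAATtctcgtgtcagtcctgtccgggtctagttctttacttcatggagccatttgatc
Asf1b: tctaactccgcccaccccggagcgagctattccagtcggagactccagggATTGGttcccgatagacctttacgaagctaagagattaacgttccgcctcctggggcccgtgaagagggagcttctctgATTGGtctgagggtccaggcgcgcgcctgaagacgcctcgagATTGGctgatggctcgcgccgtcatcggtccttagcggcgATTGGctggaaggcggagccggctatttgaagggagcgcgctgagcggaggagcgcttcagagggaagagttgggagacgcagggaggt
Rrm2: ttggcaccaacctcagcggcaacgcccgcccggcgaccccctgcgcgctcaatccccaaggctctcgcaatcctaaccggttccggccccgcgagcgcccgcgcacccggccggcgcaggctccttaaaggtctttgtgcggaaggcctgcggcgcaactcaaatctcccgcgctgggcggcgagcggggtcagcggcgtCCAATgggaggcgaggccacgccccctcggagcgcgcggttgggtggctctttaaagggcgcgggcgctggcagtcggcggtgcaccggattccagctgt

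Pclaf (chr9:65890073-65890372, plus) was added after its matches were seen, since it holds both motifs. Rfc1 (chr5:65335590-65335889, minus) and Cdc45 (chr16:18811923-18812222, minus) are abundant genes that were not called.

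Pclaf: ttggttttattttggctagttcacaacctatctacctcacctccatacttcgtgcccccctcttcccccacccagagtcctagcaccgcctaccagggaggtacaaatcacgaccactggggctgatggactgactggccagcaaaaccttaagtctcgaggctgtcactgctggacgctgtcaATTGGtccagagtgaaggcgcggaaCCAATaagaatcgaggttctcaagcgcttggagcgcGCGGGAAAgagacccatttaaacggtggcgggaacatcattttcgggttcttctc
Rfc1: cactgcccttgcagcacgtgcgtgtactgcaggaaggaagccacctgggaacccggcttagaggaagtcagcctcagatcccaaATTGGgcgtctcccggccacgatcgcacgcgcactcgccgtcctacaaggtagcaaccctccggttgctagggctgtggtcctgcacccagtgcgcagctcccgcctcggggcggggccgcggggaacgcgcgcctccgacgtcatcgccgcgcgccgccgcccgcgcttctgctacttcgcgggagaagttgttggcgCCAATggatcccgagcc
Cdc45: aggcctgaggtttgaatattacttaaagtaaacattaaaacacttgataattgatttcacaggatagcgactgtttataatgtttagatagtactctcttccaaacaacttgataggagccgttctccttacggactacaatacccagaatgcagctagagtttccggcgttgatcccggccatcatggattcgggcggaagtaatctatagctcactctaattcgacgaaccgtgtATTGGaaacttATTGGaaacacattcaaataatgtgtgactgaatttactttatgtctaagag

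Prim1 and Rrm2 each hold 1 CCAAT box, 9 and 50 bases before the start, Asf1b holds 4, all as ATTGG, and no E2F-type match lies in these windows. In Pclaf the E2F-type match GCGGGAAA begins 5 bases before the start and both CCAAT boxes lie upstream of it, whereas Rfc1 and Cdc45 each hold 2 CCAAT boxes. Over the 34 listed genes with a window, 13 (38.2%) held an E2F-type match (TTTCCCGC, TTTCGCGC, TTTGCCGC or TTTGGCGC on either strand), against 2.61% of 27025 genes. A CCAAT box, searched as CCAAT on either strand, lay in 21 (61.8%, against 41.1%), and the CHR motif, TTTGAA or TTTAAA, in 10 (29.4%, against 30.6%). By difference between the groups, E2F-type matches lay in 3 of the 10 with an unadjusted p under 0.05 and a window (Mcm3, Mcm5 and Pclaf) and in 10 of the other 24. CCAAT boxes lay in 7 of those 10 and in 14 of the 24. A match is only a run of letters and says nothing of binding.

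Among the genes that load and activate the helicase, the levels of subunits of the same complex lay far apart. Per length, in RPKM (CPM per kilobase of gene), Mcm4 averaged 4.63 over the 6 libraries, 10.9 times the next of the 6 MCM2-7 subunits, Mcm7 at 0.424 RPKM, and 55.0 times the lowest, Mcm2 at 0.0841 RPKM. In the GINS complex Gins4 averaged 4.39 RPKM and the next, Gins1, 0.149 RPKM. Cdc45, the helicase cofactor, had the highest level of this role, at 6.32 RPKM, although 9.28% of its exon bases lie opposite exons of Ufd1, so some of its reads may belong there if strand was not used in counting.

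None of the abundant genes of this role was called in either direction. Cdc45 had 14.5, 17.6 and 9.52 CPM in depolarized libraries of pairs A, B and C, against 13.5, 14.0 and 16.4 CPM in polarized ones. Mcm4, a helicase subunit, had 17.4, 20.3 and 16.1 CPM in depolarized libraries, against 17.0, 15.8 and 12.95 CPM in polarized ones. The groups overlapped for both, and the log2 differences were -0.17 ± 0.26 (SE) for Cdc45 and 0.17 ± 0.20 for Mcm4, with n = 3 pairs. Gins4 overlapped too, at -0.22 ± 0.29 on the log2 scale.

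The scarce helicase genes tested all had a fitted value below 0, and Mcm5, whose product is an MCM2-7 subunit, had the lowest. Mcm5 had 0.442, 0.261 and 0.0592 CPM in depolarized libraries, from 9, 5 and 1 counts, against 1.03, 1.47 and 3.01 CPM in polarized ones, from 20, 25 and 59 counts. Every depolarized library was below every polarized one, with a log2 difference of -2.74 ± 0.69 and an adjusted p of 0.151 (edgeR). Mcm3, another subunit, had 0, 0.678 and 0.887 CPM in depolarized libraries, against 0.931, 0.352 and 3.52 CPM in polarized ones, so pair B went the other way and the adjusted p was 0.733 (edgeR). Mcm6, Mcm7 and Cdc6 had log2 differences of -0.43 ± 0.47, -0.73 ± 0.61 and -0.49 ± 0.56, none called. For Mcm7 the single pair differences were 0.64, 0.11 and -3.19, so its negative fit rests on pair C.

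Of the genes of this role too low to test, the loading factor Cdt1 had 27 counts over the depolarized and 28 over the polarized libraries, and Gins3, a GINS subunit, had 18 over the depolarized and 17 over the polarized libraries. Gins1 stood apart, with 0, 1 and 1 counts in depolarized libraries against 10, 8 and 5 in polarized ones. That is a polarized over depolarized ratio of 11.6 on the scale of CPM from summed counts, with an exact 95% binomial interval of 2.87 to 102 that covers counting error only. Mcm2 had 7, 0 and 0 counts in depolarized libraries and 7, 10 and 8 in polarized ones, a ratio of 3.60 (1.52 to 9.87). Gins2 shares 67.3% of its exon bases with Gse1 on the opposite strand, and its 53 counts cannot be placed with certainty.

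Of the 2 primase subunits Prim1 was called and Prim2 was not, and the difference between their changes was not tested. Prim1, the catalytic subunit that makes the RNA primer, was not detected in any depolarized library, with 0, 0 and 0 counts, against 19, 14 and 30 counts in polarized libraries (0.983, 0.822 and 1.53 CPM). The 0 counts allow up to 0.0531 CPM over the depolarized group, taking 3 counts over the group as the floor, so Prim1 was at least 21.2-fold lower in depolarized libraries than in polarized ones against that floor. The exact 95% binomial interval of the ratio, which also takes in the counting error of the 63 polarized counts, begins at 16.7. Prim1 was called lower at an adjusted p of 0.0103 (edgeR), and the fitted value of -7.42 is no bound because it depends on the prior count. The gene lies on chr10:128015168-128030037 (GRCm38, plus strand) in 11 exon blocks that overlap no exon of another gene. Prim2, the large subunit that guides primer length and hand-over, had 6.08, 8.23 and 5.03 CPM in depolarized libraries, against 5.85, 6.40 and 6.27 CPM in polarized ones, and a log2 difference of -0.03 ± 0.28. Prim2 averaged 1.06 RPKM over the 6 libraries, 7.396 times Prim1 at 0.144 RPKM.

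The polymerases were low throughout. Pold1, the catalytic subunit of polymerase delta, had 0.442, 1.77 and 1.42 CPM in depolarized libraries, against 1.86, 1.70 and 0.816 CPM in polarized ones, with overlap and a log2 difference of -0.41 ± 0.53. Pola1, the catalytic subunit of polymerase alpha, had 7 counts in depolarized and 22 in polarized libraries, a polarized over depolarized ratio of 3.17 (1.31 to 8.79, counting error only). The groups overlapped for Pola1, with 0, 2 and 5 counts in depolarized libraries against 8, 1 and 13 in polarized ones. Its partner Pola2, and Pole, the catalytic subunit of polymerase epsilon, were not tested and overlapped between the groups.

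Among the clamp and its loader, Rfc2 outweighed all other listed genes. It had 129.5, 134 and 85.1 CPM in depolarized libraries (116 ± 27.1, SD, n = 3), against 128, 126 and 118 CPM in polarized ones (124 ± 5.38), and took 42.5% to 56.7% of the summed CPM of the 42 genes. The groups overlapped, and the log2 difference was -0.19 ± 0.19. Its 4 partners in the clamp loader lay far lower: Rfc1, the large subunit, averaged 4.58 RPKM against 79.1 RPKM for Rfc2, and Rfc3 only 0.140 RPKM, a spread of 566 times within a single complex. Rfc1 had 27.1, 32.7 and 19.2 CPM in depolarized libraries, against 26.7, 31.9 and 27.3 CPM in polarized ones (log2 difference -0.21 ± 0.21). As in Rfc2, Cdc45 and Gins4, the depolarized library of pair C was the lowest of the 6.

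Pcna, the sliding clamp and a common marker of cycling cells, overlapped between the groups, at 2.99, 4.53 and 4.38 CPM in depolarized libraries, against 4.09, 3.17 and 4.33 CPM in polarized ones (log2 difference -0.04 ± 0.31). Rfc4, a small subunit of the loader, had 0.638, 0.678 and 0.473 CPM in depolarized libraries, against 1.14, 1.41 and 2.86 CPM in polarized ones. The groups did not overlap for Rfc4, but its adjusted p was 0.430 (edgeR, log2 difference -1.54 ± 0.53), and 12.7% of its exon bases lie opposite Eif4a2, which had 14841 counts over the libraries against 136 for Rfc4. Rfc5 overlapped between the groups (-0.51 ± 0.59). Fen1, the flap nuclease, had 15 counts in depolarized and 12 in polarized libraries, and 84.2% of its exon bases lie opposite other genes. Lig1, the ligase that seals the lagging strand, had 10 counts in depolarized and 36 in polarized libraries, a polarized over depolarized ratio of 3.63 (1.77 to 8.21, counting error only). Polarized pair C held 27 of the 36 counts, and the groups overlapped for Lig1.

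**Figure D2:**
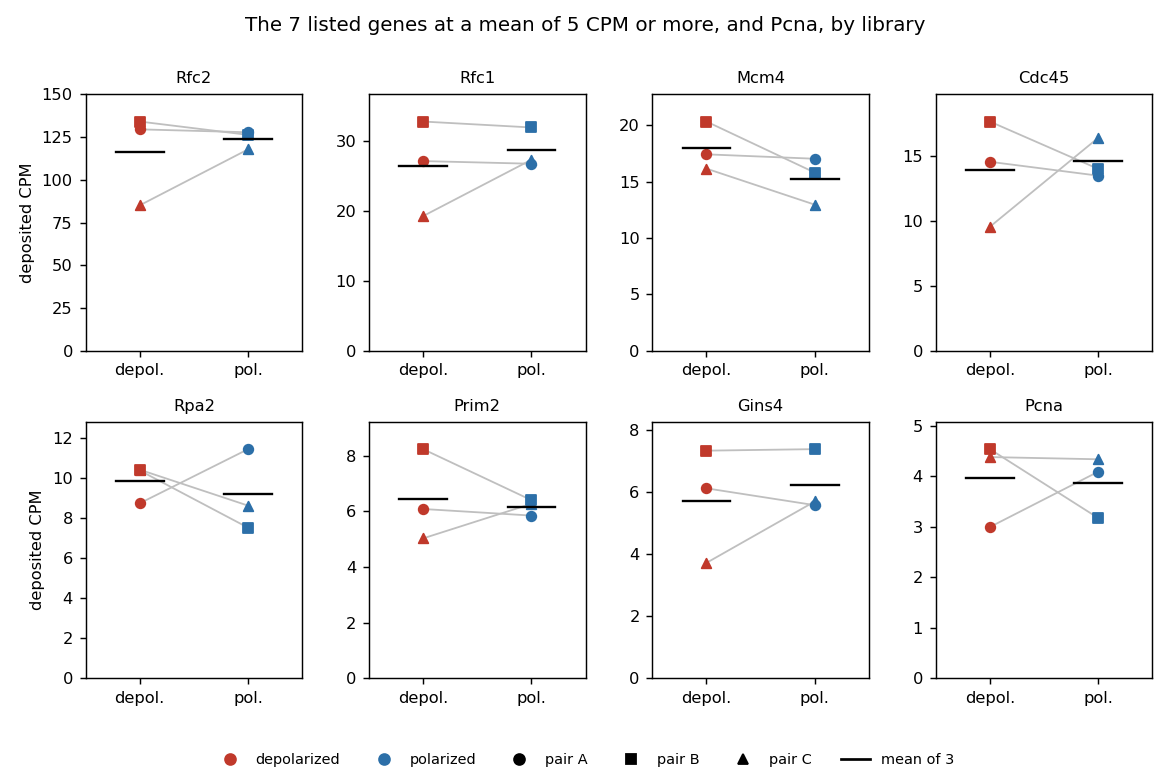
Deposited CPM (linear axes from 0, each scaled to its gene) of the 7 listed genes at a mean of 5 CPM or more, and of Pcna, in each library, depolarized left and polarized right. Lines join the pairs and black bars are means of 3; the groups overlap in all 8 panels, and the depolarized library of pair C is lowest for Rfc2, Rfc1, Cdc45, Prim2 and Gins4.

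No single-strand binding gene was called, whereas the fork protection gene Tipin was called lower in depolarized cells. Rpa2, a subunit of the RPA complex that coats single-stranded DNA, had 8.73, 10.4 and 10.4 CPM in depolarized libraries, against 11.4, 7.52 and 8.62 CPM in polarized ones, a log2 difference of 0.05 ± 0.24. Rpa1, the large RPA subunit, overlapped between the groups, at -0.07 ± 0.47. Rpa3, the small one, was below 0 in all 3 pairs by 0.23, 0.08 and 1.77 but overlapped between the groups (log2 difference -0.73 ± 0.41, edgeR adjusted p 0.887).

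Tipin, whose product joins TIMELESS at the fork and acts in the S-phase checkpoint, had 0, 0 and 5 counts in depolarized libraries, against 21, 31 and 26 in polarized ones. In CPM this is 0, 0 and 0.296 against 1.09, 1.82 and 1.33, with no overlap. Over summed counts the polarized level was 15.7 times the depolarized one, with a 95% interval of 6.46 to 49.8 for counting error, and the fitted log2 difference was -4.11 ± 0.84 (edgeR adjusted p 0.0466). Without pair B the fitted difference was -3.39 with an adjusted p of 0.0738 (edgeR), and without pair C, which holds all 5 depolarized counts, it was -7.78 with an adjusted p of 5.4e-06, a value that depends on the prior count. The gene lies on chr9:64281607-64304792 (GRCm38, plus) in 8 exon blocks free of other genes' exons. Its partner Timeless had 6 counts in depolarized and 6 in polarized libraries, too few to test, and the level of Tipin per length was 34.6 times that of Timeless.

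In nucleotide synthesis, the genes for ribonucleotide reductase and thymidylate synthase were below 0 in all 3 pairs. Rrm2, the small subunit of the reductase that makes deoxyribonucleotides, had 0.638, 1.36 and 2.01 CPM in depolarized libraries (13, 26 and 34 counts), against 2.02, 3.05 and 11.5 CPM in polarized ones (39, 52 and 226 counts). The highest depolarized library, in pair C, lay just under the lowest polarized one, in pair A. Within pairs the log2 differences were -1.46, -1.15 and -2.68, and Rrm2 was lower in depolarized cells by 1.91 ± 0.38 on the log2 scale (edgeR adjusted p 0.0399). Without pair C this became -1.38 with an adjusted p of 0.0703. Rrm2 lies on chr12:24708241-24714146 (GRCm38, plus) in 9 exon blocks with no overlap.

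Rrm1, the large reductase subunit, had 0.981, 0.365 and 0.651 CPM in depolarized libraries, against 1.91, 0.881 and 6.83 CPM in polarized ones. Its groups overlapped, since the polarized library of pair B lay under the depolarized library of pair A, yet each pair was below 0 (fit -1.99 ± 0.53, edgeR adjusted p 0.199). Without pair C the fit was -1.06 with an adjusted p of 0.349 (edgeR). Tyms, which makes thymidylate, had 0.442, 0.313 and 0.414 CPM in depolarized libraries, against 0.880, 1.06 and 2.75 CPM in polarized ones, with no overlap and an adjusted p of 0.305 (edgeR, -1.91 ± 0.57). Tk1, the salvage kinase for thymidine, overlapped between the groups, at 1.57, 4.27 and 2.37 CPM in depolarized libraries against 1.35, 2.70 and 6.02 CPM in polarized ones (-0.24 ± 0.42). Dut, which removes dUTP, was too low to test, with no more than 9 counts in a library. Summed over the 5 genes, depolarized libraries held 3.68, 6.67 and 5.56 CPM, against 6.62, 7.87 and 27.6 CPM in polarized ones, so polarized pair C stood far above the rest.

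The 3 chromatin assembly genes tested each separated the groups, against 3.14% of all genes tested. Asf1b and Pclaf are among the 7 genes for which the filter favoured the polarized side. Asf1b, a chaperone that hands histones H3 and H4 to assembly factors in cycling cells, had 0.883, 0.417 and 0.887 CPM in depolarized libraries (18, 8 and 15 counts), against 2.23, 2.52 and 5.51 CPM in polarized ones (43, 43 and 108 counts). No libraries overlapped, and it was lower in depolarized cells by 2.23 ± 0.44 on the log2 scale (edgeR adjusted p 0.0393), with pair differences of -1.18, -2.35 and -2.72. Without pair B it was -2.07 with an adjusted p of 0.0662. It lies on chr8:83955507-83970197 (GRCm38, plus) in 4 exon blocks with no overlap. Chaf1b, a subunit of the assembly factor CAF-1, had 1.08, 0.573 and 1.42 CPM in depolarized libraries, against 2.28, 4.11 and 2.96 CPM in polarized ones (edgeR adjusted p 0.187, -1.67 ± 0.44). Pclaf, a PCNA-binding protein, had 0.638, 0.417 and 0.414 CPM in depolarized libraries, against 1.40, 1.64 and 5.404 CPM in polarized ones (edgeR adjusted p 0.108, -2.32 ± 0.54).

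Both Chaf1b and Pclaf separated the groups without passing the adjusted threshold. Uhrf1, which guides maintenance methylation to new DNA, had 0, 4 and 3 counts in depolarized libraries and 8, 10 and 6 in polarized ones, a polarized over depolarized ratio of 3.46 (1.446 to 9.51). Chaf1a, the large CAF-1 subunit, had 1, 7 and 4 counts in depolarized libraries and 5, 14 and 0 in polarized ones, and 18.7% of its exon bases lie opposite Ubxn6. The 5 chromatin genes summed to 2.65, 1.98 and 3.14 CPM in depolarized libraries, against 6.57, 9.69 and 14.2 CPM in polarized ones, with no overlap.

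**Figure D3:**
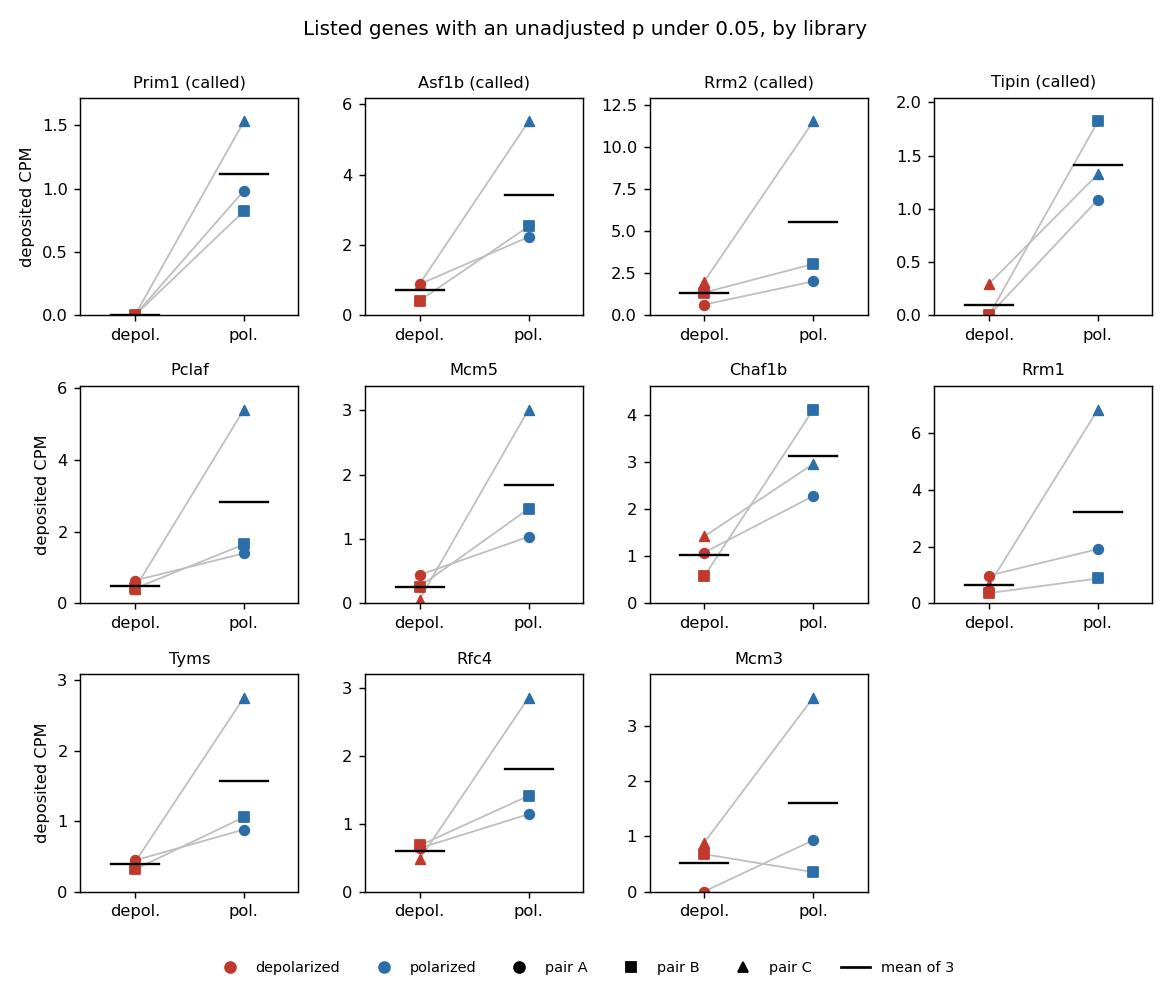
Deposited CPM (linear axes from 0, each scaled to its gene) of the 11 listed genes with an unadjusted p under 0.05, in each library, depolarized left and polarized right. Lines join the pairs and black bars are means of 3; all 3 lines climb toward polarized in 10 panels, and in Mcm3 pair B goes the other way.

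The 15 untested genes were Mcm2, Gins1, Gins2, Gins3, Cdt1, Pola1, Pola2, Pole, Rfc3, Lig1, Fen1, Timeless, Dut, Uhrf1 and Chaf1a. Together they held 204 counts in depolarized and 348 in polarized libraries, with no more than 27 counts in any library and none at 0 throughout. Their mean CPM was lower in depolarized cells for 11 and higher for 4. Mcm2, Gins1, Rfc3 and Uhrf1 did not overlap, with depolarized lower, which is 26.7% of the 15 against 2.61% of the 12008 genes with a count that did not pass the filter. The 12008 include genes with too few counts to separate the groups, so these shares are not matched on level and cannot be compared directly.

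All 11 genes with an unadjusted p under 0.05 averaged under 5 CPM. For the 20 tested genes under a mean of 5 CPM the median log2 difference was -1.60, against -0.03 for all 3958 tested genes under that level, and 11 of the 20 had an unadjusted p under 0.05 on the lower side, against 4.12% of the 3958. Of the same 20, 9 did not overlap, against 4.83%, and for Mcm5, Tyms, Prim1 and Tipin among them the filter had fixed this. For the 7 genes at 5 CPM or more (Rfc2, Rfc1, Mcm4, Cdc45, Rpa2, Prim2 and Gins4) the median was -0.17, and the median over all genes tested was -0.00. By pair, the median over the 27 was -0.69 in A, 0.02 in B and -1.41 in C, so pair C carried the widest gap. As said of the filter, some of the 20 had to lean to the polarized side, so these medians describe the genes tested, not all 42.

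**Figure D4:**
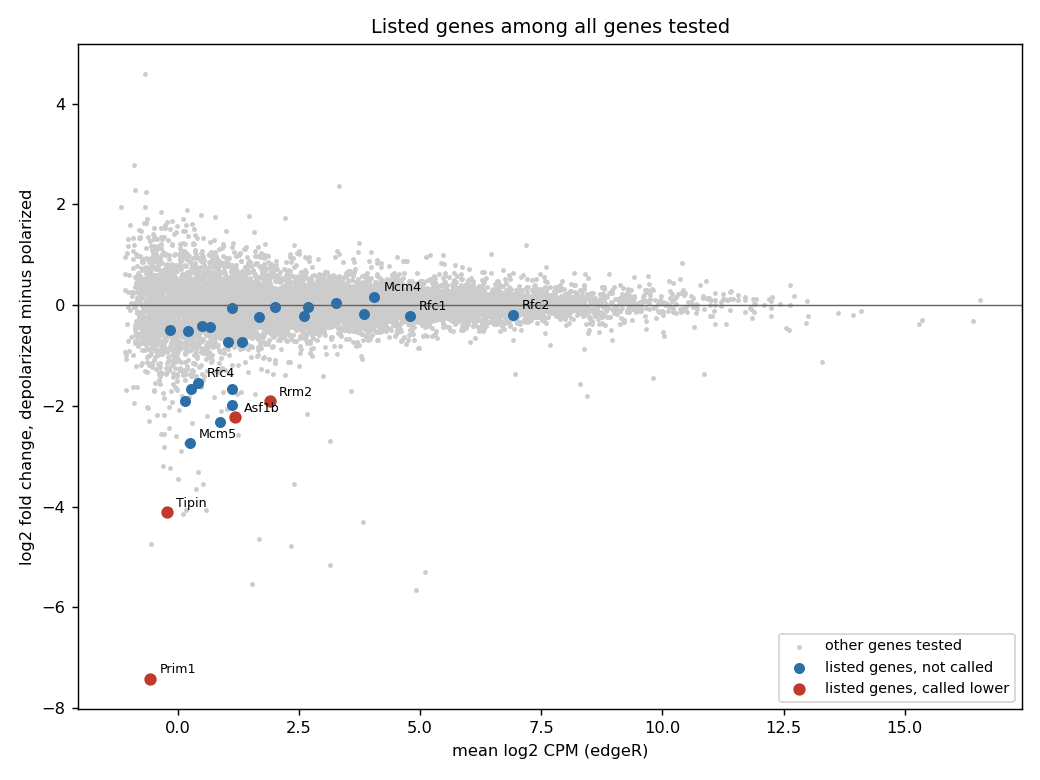
Fitted log2 fold change (depolarized minus polarized) against mean log2 CPM for all 9971 genes tested (grey) and the 27 listed genes (blue, or red where the adjusted p was under 0.05). The 4 red points lie at the low end of the level axis, between Rrm2 at -1.91 and Prim1 at -7.42, and the abundant Rfc2, Rfc1 and Mcm4 lie at -0.19, -0.21 and 0.17.

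Summed levels were led by Rfc2. All 42 genes together gave 228, 263 and 176 CPM in depolarized libraries (222 ± 43.9, SD, n = 3), against 244, 251 and 277 CPM in polarized ones (257 ± 17.6), with overlap. The 7 genes at 5 CPM or more gave 209.5, 230.7 and 149 CPM in depolarized libraries, against 208, 209 and 195 CPM in polarized ones. The 35 genes under that level gave 18.9, 32.1 and 26.6 CPM in depolarized libraries, against 36.0, 41.7 and 82.3 CPM in polarized ones, without overlap.

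**Figure D5:**
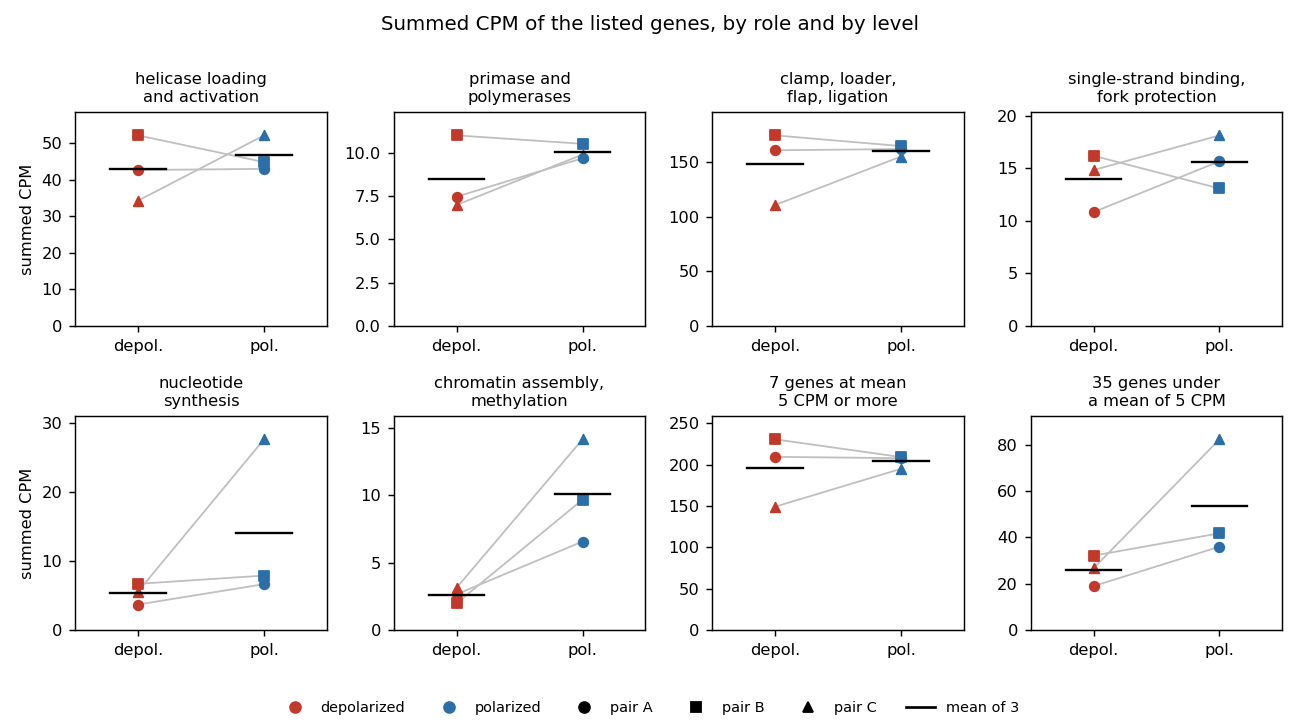
Summed CPM (linear axes from 0, each with its own scale) of the listed genes by role and, in the last 2 panels, by level, in each library, depolarized left and polarized right; lines join the pairs and black bars are means of 3. The groups do not overlap for the chromatin genes (2.65, 1.98 and 3.14 CPM in depolarized, 6.57, 9.69 and 14.2 CPM in polarized libraries) or for the 35 genes under 5 CPM, and they overlap in the other 6 panels.

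Summed markers of neutrophil precursors and of proliferation were lower in every depolarized library than in any polarized one. The 8 neutrophil precursor markers, among them the granule genes Mpo and Elane, were all lower on average in depolarized cells, with a summed level of 16.0, 20.6 and 31.1 CPM in depolarized libraries, against 63.1, 114 and 355 CPM in polarized ones. All 10 markers of mitosis and proliferation outside replication were lower as well, at a summed 8.60 to 11.7 CPM in depolarized and 15.3 to 29.2 CPM in polarized libraries. Polarized pair C was highest for both lists, as for Rrm2, Rrm1, Mcm5, Pclaf and Asf1b. The 5 stem and early progenitor markers Kit, Cd34, Flt3, Gata2 and Cd48 summed to 3.73 to 5.42 CPM in depolarized and 5.64 to 6.28 CPM in polarized libraries, without overlap, and 4 of them were lower on average in depolarized cells. Of the 7 monocyte markers 6 were lower, and they summed to 817 to 903 CPM in depolarized and 896 to 1176 CPM in polarized libraries, with overlap. The monocyte markers Ccr2 and Irf8 did not overlap, with Ccr2 at 0.0491, 0 and 0.532 CPM in depolarized libraries, against 1.55, 1.47 and 1.122 CPM in polarized ones. Csf1r, the monocyte growth factor receptor, lay the other way, at 168, 166 and 157 CPM in depolarized libraries, against 112, 102 and 105 CPM in polarized ones. The part of these lists in the result was not tested.

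Summed markers of the other marrow cells overlapped between the groups. The 10 erythroid markers (5 lower on average in depolarized cells, Epor at 0) summed to 26.9 to 96.5 CPM in depolarized and 39.9 to 63.2 CPM in polarized libraries. The 10 B lineage markers (7 lower) summed to 2.55 to 7.09 CPM in depolarized and 4.997 to 12.5 CPM in polarized libraries, and the 5 plasma cell markers (4 lower) to 1.25 to 29.2 CPM in depolarized and 0.918 to 72.6 CPM in polarized libraries. The 6 T and NK cell markers (4 lower) summed to 16.3 to 23.1 CPM in depolarized and 22.6 to 28.5 CPM in polarized libraries. Within this list Nkg7 and Trac did not overlap, with depolarized lower. Nkg7 had 0.0491, 0.0521 and 0.71 CPM in depolarized libraries, against 2.17, 2.64 and 11.7 CPM in polarized ones. The 6 eosinophil markers (4 lower) ran from 57.8 to 193 CPM in depolarized and 50.5 to 464 CPM in polarized libraries. Their Siglecf was higher in depolarized libraries without overlap, at 11.2, 8.34 and 14.2 CPM, against 7.35, 5.87 and 7.85 CPM in polarized ones. The 4 megakaryocyte markers (1 lower) ran from 0.294 to 1.36 CPM in depolarized and 0.705 to 1.22 CPM in polarized libraries. The part of these further lists in the result was not tested either.

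Beyond the 42, another 84 genes of replication and nucleotide metabolism were listed, of which 59 passed the filter. Top2a, the topoisomerase that untangles sister chromatids, was the one called, or 1 of 59 against 0.241% of all genes tested: it had 0.540, 0.313 and 0.946 CPM in depolarized libraries, against 3.05, 1.17 and 6.93 CPM in polarized ones, and fell by 2.57 ± 0.43 on the log2 scale (edgeR adjusted p 0.0121). None rose. At an unadjusted p under 0.05, 5 of the 59 were lower (against 3.32% of all genes tested) and 0 higher (against 3.26%), and the median over the 59 was -0.05. By group, the median log2 differences were -0.16 for 9 origin recognition and licensing genes, 0.12 for 3 firing genes, -0.14 for 9 fork genes, 0.03 for 20 nucleotide genes, -0.05 for 9 chromatin genes and -0.04 for 9 genes of the E2F and retinoblastoma families.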

How the data were processed

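RNA-seq libraries of sorted mouse neutrophils were analysed, 3 per group. The authors deposited whole-number counts per gene, not normalized, with the deposited CPM scaled to the library total and the deposited RPKM as CPM per kilobase of the listed gene length. Both were recomputed from the counts and matched within 6.98e-10. The tools were bcl2fastq, STAR (2.0.4b), Subread and featureCounts (1.45) on GRCm38, per the submitters' processing notes; neither the strand setting, the handling of multi-mapping reads nor the annotation version was stated in the sources used here. Groups came from the response label. The design text of the series gives the pairing, and the code ending each title names the pairs (A 180206, B 180214, C 180220). As a check, deviations from group means correlated within pairs at r = 0.0751, 0.27 and 0.0326. The titles hold a run label, run 1 for depolarized pair B and run 2 for the others, whose meaning is not given.

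In R 4.3.3, edgeR 4.0.16 (filterByExpr by group with a minimum count of 10 in 3 libraries, TMM factors, quasi-likelihood F test with the replicate block, Benjamini-Hochberg adjustment over 9971 genes holding 99.9% of counts) gave the fits; it was tested on simulated data. SEs are the fold change over the square root of F. DESeq2 1.42.0 and limma 3.58.1 served as alternatives. Count ratios carry exact 95% binomial intervals. Intervals and floors cover counting error only. Symbols were matched to 40254 of 41388 genes. Exon overlaps come from the exon blocks deposited with the counts, and GENCODE M21 was used to check gene positions. Promoter windows come from RefSeq (GRCm38.p6) for 34 of the 42 genes, and a gene with several windows holds a motif if any window does. Values in every library are given for genes with an unadjusted p under 0.05 and for the gene with the highest RPKM of each role; further genes were added where a role would otherwise not be shown. The genes and lists were chosen with earlier results of these data known. A marker gene is not reported here.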

Additional observations from a re-analysis of the deposited data

How the results depend on the processing

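With no replicate block, 0 of the 27 genes were called lower (10 at an unadjusted p under 0.05), and 0 of all genes were called in either direction (277 lower and 234 higher at an unadjusted p under 0.05); the adjusted p for Prim1 was then 0.0921, for Tipin and Asf1b 0.225 each and for Rrm2 0.512. On library totals alone 0 of the 27 were called (10 at an unadjusted p under 0.05), with 6 lower and 0 higher over all genes (221 and 431 at an unadjusted p under 0.05). With no filter 8 were called lower, with 96 lower and 50 higher over all genes. Leaving out 1 pair gave 4 to 8 listed genes lower (8 of 30 tested without A, 5 of 29 without B, 4 of 28 without C). Over all genes, 74 of 10045 were lower without A, 36 of 10051 without B and 518 of 10102 without C, with 25, 9 and 500 higher. Without C the 4 listed genes thus stand against a far larger share of all genes than in the main fit (24 of 9971). Tipin and Asf1b lost the call without pair B (adjusted p 0.0738 and 0.0662), and Rrm2 without pair C. Chaf1b, Mcm5, Pclaf and Rrm1 gained it without A, Mcm3, Pclaf and Rrm1 without B, and Chaf1b without C. DESeq2 called 4 lower with the block and 5 without it, and limma-voom, the robust fit and size factors called 4 each. The 5 from DESeq2 without the block were Asf1b, Prim1, Tipin, Mcm5 and Pclaf, so Rrm2 lost the call there (DESeq2 adjusted p 0.643). The filter of 1 CPM left 19 of the genes, not Prim1, and called 5 lower, adding Mcm5 and Pclaf (adjusted p 0.0365 and 0.0366). Over all genes DESeq2 called 16 higher with the block and 5 without. Of the 15 genes followed one by one, the sign turned for 4, all uncalled: leaving out 1 pair gave log2 differences of -0.41 to 0.23 for Cdc45, -0.21 to 0.22 for Prim2, -0.32 to 0.065 for Rfc2 and -0.14 to 0.24 for Rpa2, and library totals gave 0.038 for Prim2. The summed level of polarized pair C was 316 CPM on TMM-scaled sizes. No listed gene was called higher in depolarized cells under any of the 12 alternatives. The cause was not tested for any of these changes. Depth limits the 15 untested genes, where 3 counts over a group correspond to 0.0531 CPM in depolarized and 0.0536 CPM in polarized libraries.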
